A study of Mus musculus with 16 samples.

Results

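The Gadd45 genes and Cdkn1a encode small growth-control proteins that cells make under stress. They were followed in the retroperitoneal fat of gonadectomised mice after an injection of dihydrotestosterone (DHT), the androgen made from testosterone by 5-alpha reduction. Gadd45a, Gadd45b, Gadd45g and Cdkn1a were measured by 6 probe sets, taken as all probe sets that the platform annotation gives to 1 of these 4 gene symbols and to no other. These are 6 of 12422 probe sets that are not controls, and 4 of 8252 genes with a probe set of their own. The 5 with enough mean signal (above the 40th percentile, a signal of 116.03) were tested, and the remaining Gadd45b probe set, 161666_f_at, is given by its signals and by its ratio to the other Gadd45b probe set.

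All mice of the series were gonadectomised (GDX) and differed in sex and in the injection. In each sex, 2 arrays came from GDX mice given vehicle and 1 array from GDX mice given 0.1 mg DHT under the skin, for each of 6 intervals between injection and necropsy. The early intervals were 1, 3 and 6 h and the late ones 12, 18 and 24 h, which makes 4 vehicle and 12 DHT arrays. Neither strain, age nor the time between gonadectomy and injection is given in the sources used here, and no array of mice with gonads was used. The vehicle samples carry a time of 24 h in their labels, so the shorter DHT times have no vehicle array of their own. At those times, and in the mean over all times, a change with DHT cannot be told apart from one with the time since injection. The fat of all animals in a group was collected together, so an array may hold pooled RNA. Whether the vehicle pair of each sex stands for different animals is not stated, so the p-values rest on the spread among these arrays alone, which could be technical.

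GADD45 proteins are acidic nuclear proteins that bind PCNA, the cyclin-dependent kinase Cdk1 and the kinase MAP3K4, through which they can activate the p38 and JNK stress kinases. Gadd45a is a classical target of the tumour suppressor p53, Gadd45b (also called Myd118) was found as a gene of myeloid differentiation, and Gadd45g (also called CR6) as a cytokine-induced gene. Cdkn1a encodes p21, which inhibits cyclin-dependent kinases, binds PCNA and is another p53 target, and in fat cells it is known for its part in the exit from the cell cycle during differentiation.

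The sequences just before the transcription starts are shown for reference. Whether they bear on the change of any of the 4 genes with DHT was not tested. Each is the 250 bases upstream of the start in RefSeq on GRCm38.p6, 5′ to 3′ on the gene's strand. Gadd45g lies on the plus strand (window chr13:51846425-51846674) and Gadd45a on the minus strand (chr6:67037408-67037657). Gadd45b lies on the plus strand (chr10:80929841-80930090), as does Cdkn1a with 2 starts, the first at the outer end of the gene (chr17:29090729-29090978) and the second inside the gene (chr17:29093519-29093768). Capitals mark the box CCAAT, the E-box CACGTG and the octamer ATTTGCAT on either strand in the Gadd45 windows, the TATAAA nearest the Gadd45g start, and matches to the p53 half-site in the first Cdkn1a window. The second Cdkn1a window has no capitals.
Gadd45g: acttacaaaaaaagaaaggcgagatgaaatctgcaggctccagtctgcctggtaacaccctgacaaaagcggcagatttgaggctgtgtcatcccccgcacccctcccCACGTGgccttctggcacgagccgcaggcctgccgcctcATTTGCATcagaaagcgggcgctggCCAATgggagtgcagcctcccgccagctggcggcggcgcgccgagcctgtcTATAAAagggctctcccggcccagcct
Gadd45a: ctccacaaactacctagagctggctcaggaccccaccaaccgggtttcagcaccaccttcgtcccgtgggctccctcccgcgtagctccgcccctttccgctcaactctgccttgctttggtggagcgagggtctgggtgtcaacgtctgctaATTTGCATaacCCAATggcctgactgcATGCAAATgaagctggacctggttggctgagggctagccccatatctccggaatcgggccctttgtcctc
Gadd45b: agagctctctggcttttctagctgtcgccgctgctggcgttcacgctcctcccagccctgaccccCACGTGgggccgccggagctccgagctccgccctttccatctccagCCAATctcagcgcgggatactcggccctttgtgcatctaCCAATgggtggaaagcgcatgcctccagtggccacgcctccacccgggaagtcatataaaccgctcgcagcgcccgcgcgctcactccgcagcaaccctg
Cdkn1a, first start: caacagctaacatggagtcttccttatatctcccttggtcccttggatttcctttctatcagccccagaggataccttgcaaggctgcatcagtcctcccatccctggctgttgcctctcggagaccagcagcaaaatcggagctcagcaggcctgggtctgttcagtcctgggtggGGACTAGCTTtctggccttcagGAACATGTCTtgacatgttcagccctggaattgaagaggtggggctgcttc
Cdkn1a, second start: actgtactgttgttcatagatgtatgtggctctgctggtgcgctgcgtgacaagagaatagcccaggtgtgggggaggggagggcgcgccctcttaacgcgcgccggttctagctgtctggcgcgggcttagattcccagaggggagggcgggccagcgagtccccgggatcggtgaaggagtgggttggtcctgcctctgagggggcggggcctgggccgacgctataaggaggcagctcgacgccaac

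Motifs were searched on both strands of the 250 bases before each of 32851 RefSeq starts, and a match is a description of letters, not a bound site. AGAACA, the core of the element that androgen and glucocorticoid receptors recognise, was in none of the 5 windows and in 16.1% of all windows. The full palindrome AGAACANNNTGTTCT was also in none of the 5, and it was in 0.00913% of all. CCAAT was in the windows of all 3 Gadd45 genes (33.8% of all windows), and CACGTG in those of Gadd45g and Gadd45b (6.02%). The octamer ATTTGCAT was found in Gadd45g, 103 bases before the start, and at 2 places in Gadd45a, 97 and 70 bases before it, against 1.60% of all windows. TATAAA was 27 bases before the start of Gadd45g and 46 before that of Gadd45b (12.4% of all). The p53 half-site was matched at 2 places in the first Cdkn1a window, 73 and 51 bases before the start, and once in Gadd45a, 40 bases before it (not capitalised above), against 7.13% of all windows. GGGCGG, the GC box, was matched at 2 places in the second Cdkn1a window and once each in Gadd45a and Gadd45b (32.7% of all).

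Levels are MAS5 signals on a linear scale, and each array had been scaled to the same trimmed mean of 500. They are relative to the whole array, and levels of different probe sets are not compared. In bulk tissue, fewer cells of a type and less RNA per cell cannot be told apart. One array stood apart: male vehicle replicate 2 correlated with the other 15 arrays at 0.617 to 0.712 across probe sets, while these correlated with each other at 0.874 to 0.977. On it 14 of 15 skeletal muscle markers exceeded all other arrays, with a summed signal of 293802 against 17632 to 61140 elsewhere. Of 10 adipocyte markers, 9 lay below all other arrays and 1 above them, and the same held for 9 and 1 of 10 macrophage markers. The adipocyte markers were high on every other array, with summed signals of 68342 to 109810. No marker was at 0 on any array. Changes of the members with DHT over all times, and other values that it moved, are therefore also given over the 15 arrays without that replicate. On female DHT 12 h, 4 exocrine pancreas markers summed to 64459, against at most 5819 on the other arrays.

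Gadd45g was higher after DHT than with vehicle in both sexes. Its signal (probe set 101979_at) was 386 and 357 on the male and 308 and 354 on the female vehicle arrays. In males given DHT it was 1087 at 1 h, 1645 at 3 h, 1758 at 6 h, 1433 at 12 h, 960 at 18 h and 656 at 24 h. In females it was 794, 1156, 1165, 873, 435 and 635 at the same times. Every DHT array lay above every vehicle array, the highest value in each sex was at 6 h, and the lowest was at 24 h in males and at 18 h in females. At 6 h the signal was 4.73-fold the vehicle mean in males and 3.52-fold in females, and at 24 h it was still 1.76-fold and 1.92-fold.

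Changes were tested on log2(signal + 16) with limma across all 7453 probe sets past the signal filter, and values after ± are standard errors unless marked SD. Over all 6 times the log2 change of Gadd45g was 1.44 ± 0.15 (adjusted p = 0.00621), among 3 probe sets, or 0.0403% of those tested, that passed an adjusted p of 0.05. Without male vehicle replicate 2 it was 1.36 ± 0.15 (adjusted p = 0.00295), where 0.0537% of probe sets passed. The vehicle mean was 351 ± 32.6 (SD, n = 4) and the DHT mean over all times 1050 ± 409 (SD, n = 12), a spread that includes the time course. At single times the comparisons share the vehicle arrays, all labelled 24 h, and hold 2 DHT arrays each. Gadd45g passed at 3 h (1.93 ± 0.23, adjusted p = 0.0192), where 0.0134% of probe sets did. It passed at 6 h (1.98 ± 0.23, adjusted p = 0.00870) and at 12 h (1.63 ± 0.23, adjusted p = 0.0335), where 0.0403% did in each. At 1 h its log2 change was 1.37 ± 0.23 (adjusted p = 0.518), and at 18 and 24 h it was 0.86 and 0.85. At 1, 18 and 24 h no probe set passed, while 181, 386 and 196 had an unadjusted p under 0.05. With 15 arrays Gadd45g passed at the same times (1.85 at 3 h, 1.91 at 6 h and 1.56 at 12 h) and its change was 1.29 at 1 h and 0.78 at 18 and at 24 h. The calls at 3 h and 12 h were lost in 10 and 12 of the 16 fits that left out 1 array, with adjusted p-values of 0.0519 to 0.584 and of 0.0507 to 0.642 in those fits. The call at 6 h was lost without male DHT 6 h (1.91, adjusted p = 0.206) or female DHT 6 h (2.05, adjusted p = 0.454). In the test of all 6 times together (limma's F test), the adjusted p of Gadd45g was 0.0520 with 16 arrays, where no probe set passed and 86 had an unadjusted p under 0.05. It was 0.0156 with 15 arrays, where 0.0671% passed.

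**Figure D1:**
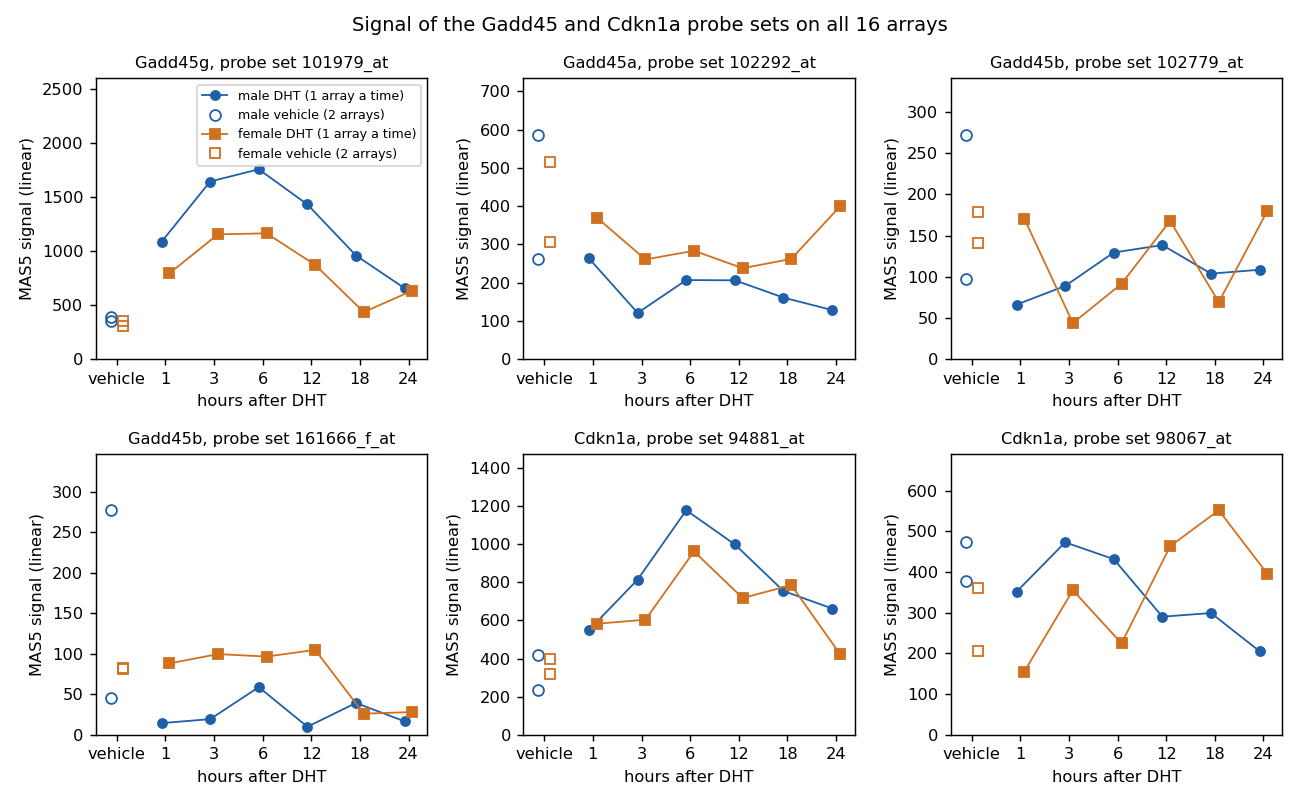
MAS5 signal (linear, from 0) of each probe set by time after DHT, with males in blue circles, females in orange squares, open symbols for the 2 vehicle arrays of each sex and filled ones for the single DHT array at each time. Gadd45g and Cdkn1a 94881_at lie above all vehicle arrays at every time, while the highest Gadd45a and Gadd45b points are the open circle of male vehicle replicate 2.

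Cdkn1a was measured by 2 probe sets, and they differed. The signal of 94881_at was 421 and 235 on the male vehicle arrays, the latter being the muscle-rich replicate 2, and 321 and 400 on the female ones. After DHT it was 550, 814, 1178, 999, 755 and 663 in males and 583, 604, 962, 717, 785 and 425 in females, from 1 to 24 h. All 12 DHT arrays were above all 4 vehicle arrays, and the 6 h array was the highest in both sexes, as for Gadd45g. Female DHT 24 h, at 425, was just above the highest vehicle array. Of 7453 probe sets, 6 (0.0805%) had all DHT arrays above all vehicle arrays, and 5 (0.0671%) had all of them below. The counts in both directions were close, so this separation alone does not mark a response. The 6 above were Gadd45g, Cdkn1a 94881_at, 2 probe sets of Errfi1 (which inhibits EGF receptor signalling), Pnp (purine nucleoside phosphorylase) and the unnamed 102707_f_at. Without male vehicle replicate 2 there were 12 (0.161%) above and 5 (0.0671%) below.

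The log2 change of Cdkn1a 94881_at over all times was 1.08 ± 0.18 and did not pass (adjusted p = 0.0906). With 15 arrays it was 0.87 ± 0.14 (adjusted p = 0.0569). At 6 h it was 1.62 ± 0.26 (adjusted p = 0.111) with 16 arrays and 1.41 ± 0.19 (adjusted p = 0.0181) with 15, where it passed together with 3 other probe sets (0.0537%). Its changes at the other times were 0.73, 1.03, 1.29, 1.16 and 0.63 from 1 to 24 h, each ± 0.26.

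The signal of the other Cdkn1a probe set, 98067_at, was 474 and 379 on the male and 206 and 361 on the female vehicle arrays. In males it was 351, 473, 432, 290, 299 and 205 from 1 to 24 h. In females it was 155, 355, 225, 464, 552 and 396. The DHT arrays overlapped the vehicle arrays, with 1 above and 2 below all 4 of them. Over all times its log2 change was -0.04 ± 0.30 (adjusted p = 0.957; -0.02 ± 0.33 with 15 arrays), and, with 16 arrays, no single time lay further from 0 than -0.51 ± 0.44.

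Both probe sets carry the symbol Cdkn1a and no other in the annotation. Their log2 ratio on each array, of which only the change between arrays is read, rose by 1.12 with DHT, from a vehicle mean of -0.02 (range -0.65 to 0.60) to a DHT mean of 1.10 (0.10 to 2.02). It was above all vehicle arrays on 10 of 12 DHT arrays, the exceptions being female DHT 18 h and 24 h. An exact two-sided permutation test, which reassigned the vehicle label within each sex in all 784 ways, gave p = 0.0140, or 0.0234 adjusted over the 5 pairs of probe sets compared. Without male vehicle replicate 2 the difference was 1.00 (exact p = 0.0408, adjusted 0.0680) and no longer passed. Across the 15 arrays the signals of both Cdkn1a probe sets correlated at r = 0.13. Where on the transcript each probe set lies was not analysed here.

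Gadd45a, the p53-responsive member, had lower signals after DHT on most arrays, and the change did not pass. Its signal (102292_at) was 262 and 587 on the male and 306 and 516 on the female vehicle arrays. In males given DHT it was 263, 121, 207, 206, 161 and 128 from 1 to 24 h, and in females 370, 260, 283, 238, 262 and 399. The highest value of all 16 arrays was that of male vehicle replicate 2, and no DHT array was above all vehicle arrays, while 7 of 12 were below all of them. The log2 change over all times was -0.75 ± 0.25 (adjusted p = 0.630). Without male vehicle replicate 2 it was -0.45 ± 0.21 (adjusted p = 0.999), so that this array, whose muscle markers are given above, moved the value by over 1.5 times. Changes at single times ran from -0.33 at 1 h to -1.08 at 3 h, each ± 0.38, and none passed.

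Gadd45b was close to the signal filter. Probe set 102779_at had signals of 97 and 273 on the male and 179 and 141 on the female vehicle arrays. After DHT it was 66, 89, 129, 138, 104 and 108 in males and 171, 44, 92, 168, 69 and 180 in females. Vehicle and DHT arrays overlapped, with 5 of 12 DHT arrays below all vehicle arrays and none above. Its log2 change over all times was -0.55 ± 0.30 (adjusted p = 0.630), and without male vehicle replicate 2, where it was under the signal filter and so fitted without the filter, it was -0.28 ± 0.30. The other Gadd45b probe set, 161666_f_at, whose suffix marks probes that can match several related sequences, was under the filter. Its signal was 45 and 277 on the male and 82 and 81 on the female vehicle arrays, and it ran from 9.92 to 58.8 in males and from 26.0 to 105 in females given DHT. The 2 Gadd45b probe sets correlated at r = 0.17 over 15 arrays, and the change of their ratio with DHT was 0.46 (exact p = 0.356, adjusted 0.445). It was 0.24 without male vehicle replicate 2, and 0.72 and 0.22 with pseudocounts of 1 and 64 in place of 16.

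**Figure D2:**
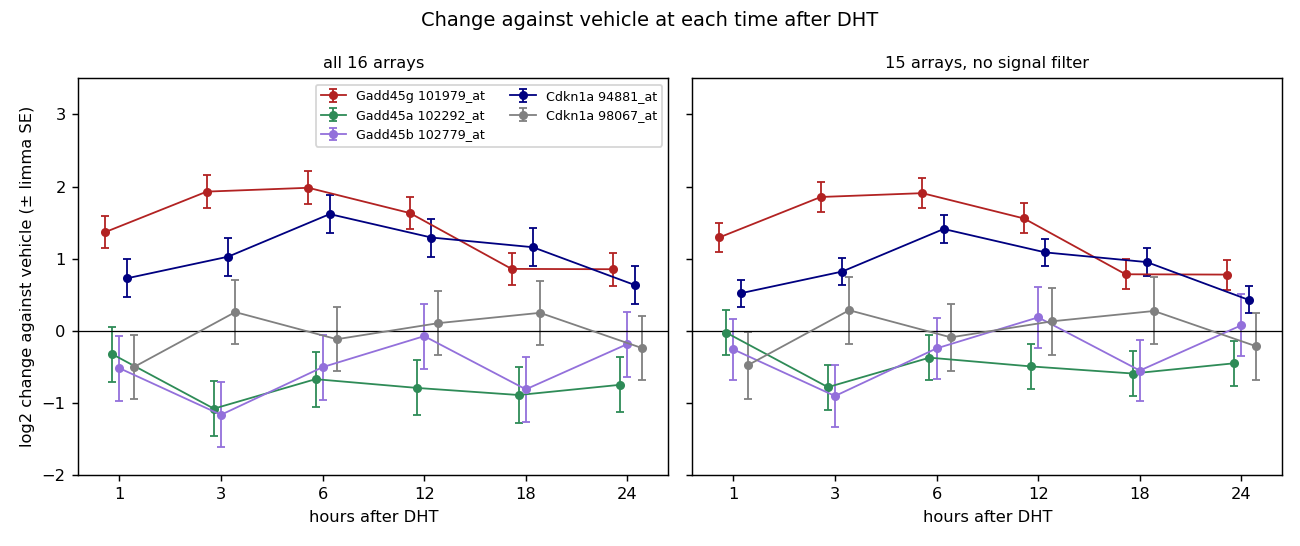
Log2 change against vehicle at each time after DHT (points, bars ± limma's standard error) for the 5 tested probe sets, with all 16 arrays on the left and with 15 arrays and no signal filter on the right. The Gadd45g and Cdkn1a 94881_at lines have their highest point at 6 h in both panels, and the Gadd45a line lies nearer to 0 in the right panel.

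Within the Gadd45 family the response of Gadd45g differed from those of Gadd45a and Gadd45b. The log2 ratio of Gadd45g to Gadd45a was -0.69 to 0.54 on the vehicle arrays and 0.65 to 3.60 on the DHT arrays, so that all 12 DHT arrays were above all vehicle arrays. Gadd45g alone already separated in this way, and its ratios to probe sets outside these genes were not counted. The change of the ratio to Gadd45a was 2.19 (exact two-sided permutation p = 0.00128, the smallest that the 784 assignments allow, adjusted 0.00319 over 5 pairs). The ratio of Gadd45g to Gadd45b 102779_at changed by 1.98 (exact p = 0.00128, adjusted 0.00319) and was above all vehicle arrays on 11 of 12 DHT arrays, the exception being female DHT 24 h. With 15 arrays these differences were 1.88 and 1.62, each with an adjusted exact p of 0.0128. The difference between Gadd45a and Gadd45b was -0.21 (exact p = 0.536, adjusted 0.536) and did not pass.

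**Figure D3:**
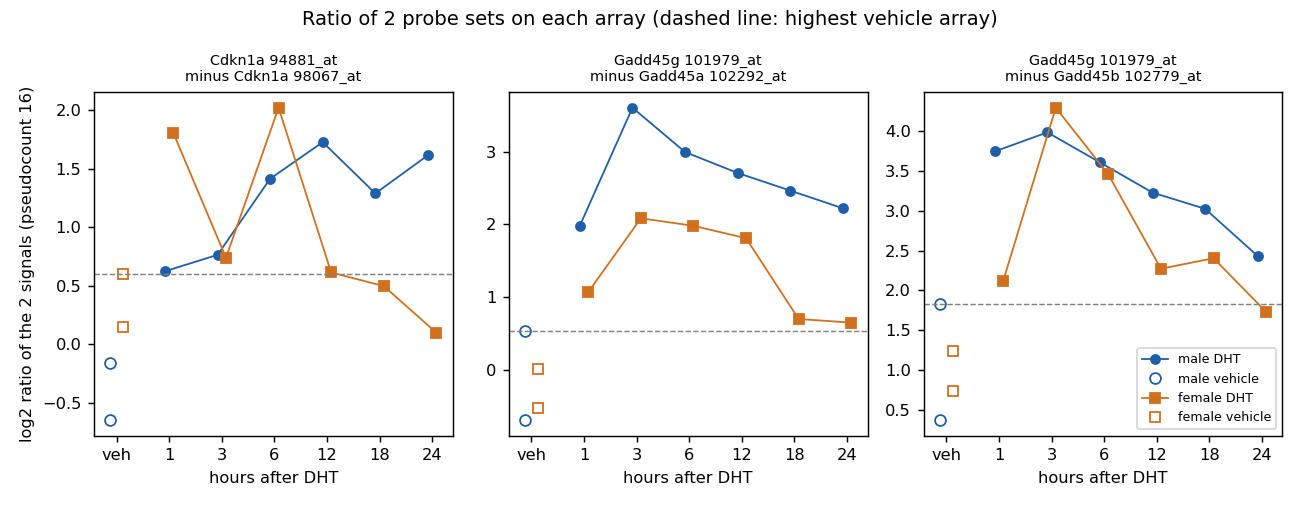
Log2 ratio of the signals of 2 probe sets on each array, by time after DHT, for the 3 pairs whose ratio changed with 16 arrays, with males in blue, females in orange, vehicle arrays as open symbols and a dashed line at the highest vehicle array. All 12 DHT arrays lie above the line for Gadd45g against Gadd45a, 11 for Gadd45g against Gadd45b and 10 for the Cdkn1a pair.

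Late Gadd45g signals were lower than early ones in the mean, and the difference did not pass the test. The signal ran from 794 to 1758 (median 1160) on the 6 early and from 435 to 1433 (median 764) on the 6 late DHT arrays, which overlap. The log2 change from early to late was -0.65 ± 0.15 with 16 arrays (unadjusted p = 0.00117), where no probe set passed and 195 had an unadjusted p under 0.05. With 15 arrays its adjusted p was 0.160, where 0.0268% of probe sets passed. The change was -0.09 ± 0.18 for Cdkn1a 94881_at and -0.12 ± 0.25 for Gadd45a, and neither passed. Antisense control probe sets of the array also differed between these groups, with a mean log2 signal of 6.38 to 9.28 on early and 8.68 to 9.96 on late arrays. When a fit of all 16 arrays took that mean as a further term, the change from early to late was -0.59 ± 0.22 for Gadd45g, -0.29 ± 0.25 for Cdkn1a 94881_at and 0.30 ± 0.34, of opposite sign, for Gadd45a, and none passed.

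Gadd45g was lower and Gadd45a higher in females than in males at matched times after DHT. Gadd45g was lower in females at all 6 times, at 0.453 to 0.967 of the male signal (8.75% of probe sets were lower in females at all 6 times). Gadd45a was higher in females at all 6, at 1.15 to 3.11 times the male signal (10.9% were higher at all 6). On the vehicle arrays the sexes overlapped for Gadd45a. The Gadd45g vehicle signals were 308 and 354 in females and 386 and 357 in males, the 357 being that of the muscle-rich replicate 2. Over all arrays the log2 difference, female minus male, was -0.47 ± 0.13 (adjusted p = 0.0637) for Gadd45g and 0.54 ± 0.22 (adjusted p = 0.203) for Gadd45a, and 5.58% of probe sets passed. With 15 arrays both passed, Gadd45g at -0.50 ± 0.12 (adjusted p = 0.0148) and Gadd45a at 0.69 ± 0.17 (adjusted p = 0.0172), but so did 15.7% of probe sets. Neither Cdkn1a probe set passed with 16 or 15 arrays, and Gadd45b did not pass with 16. The macrophage markers also differed between the sexes, with a summed signal of 28692 to 34839 on the female arrays and at most 24244 on the male ones, and adipocyte markers summed to 68342 to 89035 in females and 84097 to 109810 in males other than vehicle replicate 2. The summed signal of the skeletal muscle markers was lower in females (median 29167, against 45162 in males other than vehicle replicate 2) and that of the T and B cell markers higher (median 1508 against 1044), and both ranges overlap. The part of these cells in the sex difference was not tested. The mean log2 antisense signal was lower in females than in males at 3 h (6.38 against 9.28), 6 h (6.61 against 8.62) and 24 h. At 1, 12 and 18 h it was higher in females. Over the alternative fits, those with the antisense term among them, the sex difference was -0.55 to -0.37 for Gadd45g and 0.40 to 0.69 for Gadd45a.

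The response to DHT itself was not shown to differ between the sexes for any of the 5 probe sets. The sex difference of the mean response, female minus male, was -0.40 ± 0.29 for Gadd45g, 0.70 ± 0.49 for Gadd45a, -0.45 ± 0.34 for Cdkn1a 94881_at, 0.60 ± 0.59 for 98067_at and 0.11 ± 0.63 for Gadd45b. No probe set passed in this comparison, where 466 had an unadjusted p under 0.05. With 15 arrays the difference was 0.14 for Gadd45a, -0.05 for Cdkn1a 94881_at and -0.35 for Gadd45g. Without male vehicle replicate 1, which leaves the muscle-rich replicate 2 as the only male vehicle array, 31.5% of probe sets passed and none of the 5 did (1.26 ± 0.46 for Gadd45a, adjusted p = 0.0601, and -0.85 ± 0.30 for Cdkn1a 94881_at, adjusted p = 0.0521). Within males alone the log2 change of Gadd45g was 1.64 ± 0.21 (adjusted p = 0.0437, with 0.0268% of probe sets passing), and without male vehicle replicate 2 it was 1.58 ± 0.25 (adjusted p = 0.226). This call was lost in 14 of the 16 fits that left out 1 array (adjusted p = 0.0539 to 0.226), all but those without male vehicle replicate 1 or female DHT 18 h. It was also lost with a pseudocount of 64 (adjusted p = 0.0520), without the trend (0.0546) and with the antisense level as a term (0.0713). Without male vehicle replicate 1, where 41.5% of probe sets passed within males, the change was 1.69 for Gadd45g, 1.70 for Cdkn1a 94881_at and -1.66 for Gadd45a, and these 3 were among those passing. Within females it was 1.24 ± 0.21 (adjusted p = 0.241). The log2 change of Cdkn1a 94881_at was 1.30 ± 0.24 in males (0.90 with 15 arrays) and 0.85 ± 0.24 in females, and none of these passed.

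**Figure D4:**
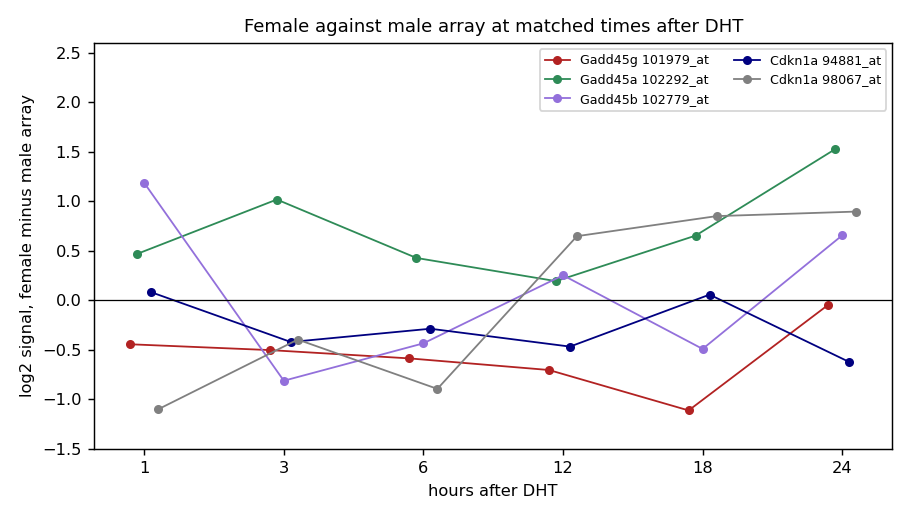
Log2 signal of the female minus that of the male DHT array at each matched time, 1 line for each tested probe set, with 0 marking equal signal. The Gadd45g line lies below 0 and the Gadd45a line above 0 at all 6 times, while Cdkn1a 98067_at lies below 0 at 1, 3 and 6 h and above it later.

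Across the 15 arrays, which share the vehicle arrays and the DHT times, Gadd45g and Cdkn1a 94881_at correlated at r = 0.80, and at 0.55 over the 12 DHT arrays alone. Gadd45a correlated with them at -0.52 and -0.56. The genes whose pattern was most like a member were ranked by Pearson's r over the same 15 arrays among 6714 probe sets with 1 symbol. For Gadd45g they were Cebpd (0.89), Zbtb16 (0.88), Eloa (0.82), Errfi1 (0.81) and Jmjd6 (0.80). Cebpd encodes an early transcription factor of adipocyte differentiation, and Zbtb16 a zinc-finger repressor known to respond to steroid hormones. For Cdkn1a 94881_at they were Fkbp5 (0.87), a co-chaperone of steroid receptors, the metallothionein Mt2 (0.85), Nampt (0.83), Mycl (0.78) and Zbtb16 (0.77). For Cdkn1a 98067_at they were Ddx21 (0.78), B3galnt1 (0.73), Nup50 (0.70), Acvr1b (0.70) and Cyfip2 (0.70). For Gadd45a they were C1d (0.92), Cxcl12, Tnfrsf11b and Gabpa (0.91 each) and Tmed7 (0.89). For Gadd45b 102779_at they were Rnf26, Slc30a5, Hdac2, Nek6 and Pip4p2, at 0.66 to 0.71. Several of these values depend on leaving out male vehicle replicate 2. Over all 16 arrays r was 0.40 for Eloa with Gadd45g, -0.04 for Nampt and 0.42 for Zbtb16 with Cdkn1a 94881_at, and 0.55 for Tnfrsf11b with Gadd45a. It was 0.27 for B3galnt1, 0.55 for Nup50 and 0.53 for Acvr1b with Cdkn1a 98067_at, and 0.22 for Rnf26, 0.53 for Slc30a5 and 0.34 for Nek6 with Gadd45b. The other values were 0.64 to 0.93. Over the 12 DHT arrays alone, r of the genes ranked for Gadd45g ran from 0.56 (Errfi1) to 0.89 (Zbtb16). For those ranked for Cdkn1a 94881_at it ran from 0.60 (Zbtb16) to 0.75 (Mt2).

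The other genes of these pathways are given by their values, since only 0.0403% of all probe sets passed with DHT over all times (0.0537% with 15 arrays) and a count of none in a short list is near that background. Of 11 tested p53 targets (25 listed), none passed, with a median log2 change of -0.13 against 0.04 over all probe sets, and 0.04 against 0.01 with 15 arrays. The smallest p was that of Ddit4, an inhibitor of mTOR signalling, whose signal was 518 ± 164 (SD, n = 4) with vehicle and 852 ± 185 (SD, n = 12) with DHT (log2 change 0.73 ± 0.21, adjusted p = 0.630). With 15 arrays its change was 0.45 ± 0.14 (adjusted p = 0.999). It was followed by Phlda3 (-0.23, and -0.28 with 15 arrays) and Btg2 (0.30, and 0.04 with 15 arrays). Mdm2, which targets p53 for degradation and is a p53 target itself, had a change of -0.26 ± 0.24, which turned to 0.08 ± 0.16 with 15 arrays. Of 18 tested CDK inhibitors, CDKs and cyclins (24 listed), none passed, with a median of 0.14 (0.05 with 15 arrays). The smallest p-values belonged to cyclin E1 (Ccne1, 0.46 ± 0.16), the phosphatase Cdc25c (0.51 ± 0.19) and cyclin D3 (Ccnd3, 0.36 ± 0.17). With 15 arrays these were 0.39, 0.43 and 0.13.

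Of the 7 tested MAP kinase partners of GADD45 (11 listed), all had negative changes with 16 arrays (median -0.30) and none passed. With 15 arrays the median was -0.06 and 2 were positive, so the shift rests on male vehicle replicate 2. Map3k4, the kinase that GADD45 proteins bind, had a change of -0.20 ± 0.23 (16 arrays) and -0.06 ± 0.24 (15 arrays), and Mapk14, which encodes p38 alpha, by -0.41 ± 0.19 and -0.15 ± 0.12. Next to Mapk14 the smallest p-values were those of Mapk8 (-0.38, and -0.12 with 15 arrays) and Map2k3 (-0.30, and -0.16). Of 16 tested stress response genes (19 listed) none passed, with a median of 0.13 (0.01 with 15 arrays), and Hspa5 (0.29), Nfkbia (0.22) and Fos (0.43) had the smallest p-values. Their values with 15 arrays were 0.24, 0.14 and 0.23. Of 12 tested transcription factors and other genes reported upstream of Gadd45 or Cdkn1a (18 listed) none passed, with a median of 0.29 (0.01 with 15 arrays). Cebpd had the smallest p there, with 779 ± 81.4 (SD, n = 4) with vehicle and 1300 ± 314 (SD, n = 12) with DHT (0.69 ± 0.13, adjusted p = 0.202; 0.71 with 15 arrays). It was followed by Sp1 (0.67 ± 0.30) and Cebpa (0.82 ± 0.52), whose values rest on male vehicle replicate 2 and were 0.28 ± 0.22 and, with the sign turned, -0.07 ± 0.08 without it.

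**Figure D5:**
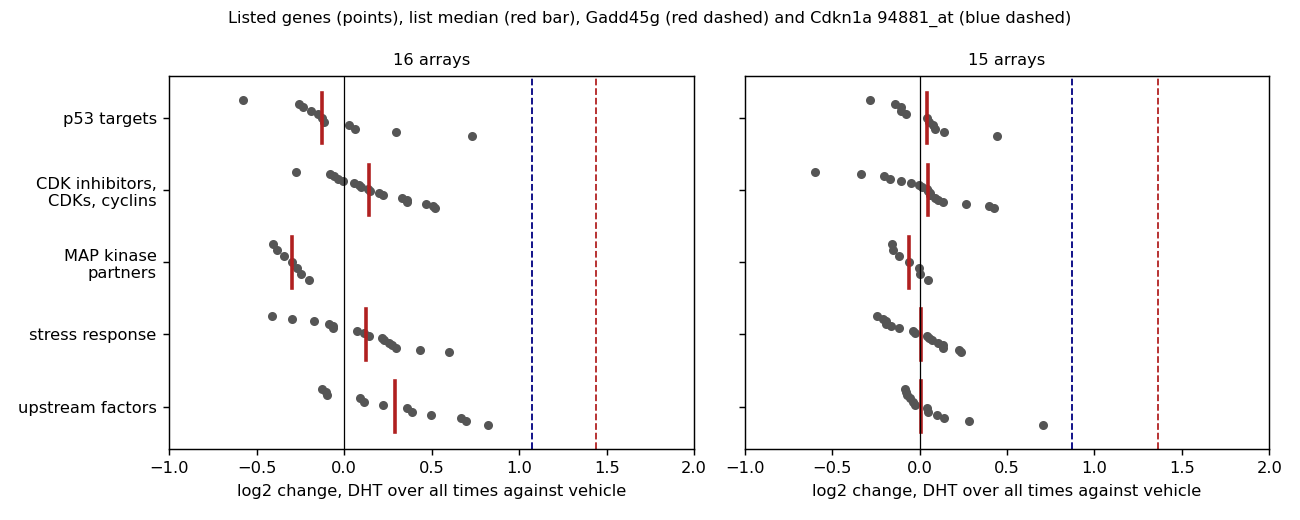
Log2 change with DHT over all times for each tested gene of the 5 lists (points) with the list's median (red bar), for 16 arrays (left) and 15 arrays (right), beside Gadd45g (red dashed line) and Cdkn1a 94881_at (blue dashed line). All listed genes lie to the left of both dashed lines in both panels, and all 7 MAP kinase points lie below 0 in the left panel, against 5 in the right.

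Between the sexes some list genes passed, against the 5.58% of all probe sets. With 16 arrays Cdk1, the mitotic kinase that GADD45 proteins bind, was higher in females by 1.86 ± 0.27, cyclin D1 (Ccnd1) by 0.55, cyclin B2 (Ccnb2) by 0.78, the apoptosome component Apaf1 by 0.84, Atf3, a stress-induced transcription factor, by 0.76 and Ier3 by 0.48, while Phlda3 had a log2 difference of -0.58. That is 3 of 18 cell cycle genes, 2 of 11 p53 targets, 2 of 16 stress genes, none of 7 MAP kinase partners and none of 12 upstream factors. With 15 arrays, where 15.7% of all probe sets passed, Mdm2 (0.77), Map2k4 (0.36), Hspa5 (0.46) and Tgfb1 (0.91) were also higher in females. Rrm2b (-0.42), Cdkn2c (-0.29), Asns (-0.38) and Cebpa (-0.33) were then lower.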

How the data were processed

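RNA of retroperitoneal fat was hybridised to 16 single-colour Affymetrix arrays. The authors deposited 1 linear intensity (MAS5 signal) for each probe set and array. The submitters' processing notes name MAS5, whose version is not given in those notes, and no detection calls were used here. The mean signal was 500 on every array after trimming 2% at each end. Of 12488 probe sets, 66 controls were left out. The annotation listed 11251, of which 10855 had 1 symbol and 396 several, and 10839 matched RefSeq by Entrez identifier.

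Values were analysed as log2(signal + 16), so changes of low signals are understated. limma 3.58.1 (R 4.3.3) fitted sex and time to the 7453 probe sets above the 40th percentile, with eBayes and a trend (8 residual degrees of freedom), and another fit added a sex by DHT term (7). Tests were two-sided and adjusted by Benjamini-Hochberg over all probe sets, threshold 0.05. The number of arrays limits the precision. Exact permutation tests enumerated every assignment with numpy 2.4.6, and scipy 1.17.1 adjusted their p-values over the pairs. The fits were tested on simulated data.

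All member probe sets are named, and list genes if they passed or had the 3 smallest p-values for DHT over all times, plus the 5 genes most like each member. Mdm2 and Map3k4, also printed, were chosen after their values were seen. The members and lists were chosen with earlier results of these data known. Alternatives were leaving out each array, the pseudocount, scaling, filter, trend, 1 probe set per gene, an antisense covariate and separate means. The 15-array fits with the covariate or without the filter, and late against early within each sex, were added after seeing the data.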

Additional observations from a re-analysis of the deposited data

Results flagged for a closer look

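Cdkn1a 98067_at moved in opposite directions from early to late times in the sexes. In males its early signals were 351, 473 and 432 and its late ones 290, 299 and 205, so that all late arrays lay below all early ones (log2 change -0.64 ± 0.25). In females the early signals were 155, 355 and 225 and the late ones 464, 552 and 396, so that all late arrays lay above all early ones (0.96 ± 0.25). The difference, female minus male, was 1.59 ± 0.35 in limma (unadjusted p = 0.00119, or 0.000737 with 15 arrays). It did not pass adjustment over all probe sets, where none passed and 92 had an unadjusted p under 0.05. This test was added after the values had been seen, on a probe set flagged for this same separation of late from early arrays. Its p-value is therefore no independent evidence. How many of all probe sets separate in this way was not counted. The other Cdkn1a probe set, 94881_at, had a difference of -0.14 ± 0.36. In females the mean log2 signal of the antisense controls was 6.38 to 6.75 on early and 8.84 to 9.96 on late arrays. In males it overlapped, at 6.71 to 9.28 on early and 8.68 to 9.07 on late arrays. The fits of late against early within each sex had no antisense term, so its part in this pattern was not tested.

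Gadd45b 161666_f_at, the probe set under the signal filter, had an outlying array in each of 2 groups, by Dixon's test at the 95% level. Male vehicle replicate 2, the array with high muscle markers, had a signal of 277 among 4 vehicle arrays. Female DHT 12 h, the array with high exocrine pancreas markers, had a signal of 105 among the 6 late DHT arrays of both sexes. This value was near those of most other female arrays, at 82.3 and 80.6 with vehicle and 88.1, 99.6 and 96.6 at 1, 3 and 6 h. Only female DHT 18 h and 24 h were low, at 26.0 and 28.1. The 2 flagged groups were among 30 tested, and chance flags about 1 in 20 groups.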

How the results depend on the processing

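Gadd45g over all times passed in 27 of 28 alternatives (log2 change 1.33 to 1.53) and did not with separate means for each sex and time, which leave 2 residual degrees of freedom (1.44, adjusted p = 0.992). There 0 probe sets passed and 59 had an unadjusted p under 0.05. The count of probe sets passing over all times was 5 with 15 arrays and no filter, and 1 to 4 when 1 array was left out. The Cdkn1a pair difference was 1.00 (adjusted 0.0680) without male vehicle replicate 2. No value of Cdkn1a 94881_at over all times passed (0.87 to 1.19).

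Signs that turned all belong to changes that did not pass, and the cause was not tested. For Cdkn1a 98067_at, leaving out 1 array gave -0.26 to 0.10 over all times, -1.05 to 0.036 at 1 h, -0.54 to 0.31 at 6 h, -0.35 to 0.56 at 12 h, -0.32 to 0.82 at 18 h, -0.84 to 0.36 at 24 h and -0.039 to 0.36 from early to late. With 15 arrays and the antisense covariate it was 0.050 over all times, 0.081 at 6 h and -0.13 from early to late (-0.073 with 16). Gadd45a from early to late was -0.31 to 0.069 with 1 array left out, 0.30 with the covariate and 0.10 with it and 15 arrays. Gadd45b 102779_at stayed past the signal filter in 9 of the 16 fits without 1 array, and these gave -0.75 to 0.14 at 1 h, -0.42 to 0.17 at 24 h, -0.13 to 0.15 between the sexes and -0.12 to 0.78 for the sex difference of the response. Without the filter and with 15 arrays it was 0.18 at 12 h, 0.075 at 24 h and -0.57 for that sex difference, and with quantile normalization -0.063 between the sexes. No paired analysis was possible because the labels give no replicate numbers that vehicle and DHT groups share. The sexes share the times, and their comparison had time as a term. Signal over background was not measured here.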
